A study of Arabidopsis thaliana with 8 samples.

Results

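WRKY factors are plant transcription factors that bind W-box elements in the promoters of stress genes through a domain with a WRKYGQK sequence and a zinc finger. Group III is the branch with a C2HC type of zinc finger, and in Arabidopsis leaves its members are known for salicylic acid signalling, basal resistance to bacteria and leaf senescence. The 9 genes described here are WRKY30 (AT5G24110), WRKY38 (AT5G22570), WRKY41 (AT4G11070), WRKY46 (AT2G46400), WRKY53 (AT4G23810), WRKY54 (AT2G40750), WRKY55 (AT2G40740), WRKY62 (AT5G01900) and WRKY70 (AT3G56400). They were taken by locus from 27172 genes in count tables over exons and over coding sequence, and all 9 had a row in both tables. Other group III genes of the family, WRKY63, WRKY64, WRKY66 and WRKY67, lie outside this set and had 0 counts in every library.

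Leaves of Arabidopsis thaliana (Col-0, 3-week-old plants) were the source of all libraries. They were infiltrated with 10 µM elf18, which derives from the bacterial elongation factor Tu and is sensed by the receptor kinase EFR. Mock leaves received 10 mM MgCl2. Plants of both treatments carried the transgene 35S:uORFsTBF1-LUC, in which the constitutive 35S promoter drives luciferase behind the upstream open reading frames of TBF1. About 24 plants, with 2 leaves from each, were pooled into a lysate, which gave 1 RNA-seq library and 1 library of ribosome footprints, the fragments of messenger RNA that ribosomes protect from nuclease. This made 8 libraries from 4 lysates, in 4 groups of n = 2 (RNA from mock and from elf18 leaves, and footprints from each). How long after infiltration the leaves were harvested is not stated in the labels. The labels do not say whether the lysates of a treatment came from separately grown or separately treated plants, so the p-values measure the spread between these lysates.

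Library totals ran from 7898180 to 15405467 counts over exons for RNA and from 4752563 to 6717946 counts over coding sequence for footprints. Levels are given below in CPM, counts per 1000000 counts of the library. CPM is not corrected for gene length, and no transcript lengths of the build were at hand, so levels are compared between libraries and not between genes. Of the leaf markers RBCS1A, CA1, LHCB6 and PSBO1, the lowest value in any library was 2279 CPM, for CA1, while the root markers EXPA7 and PHT1;1 had 0 counts throughout, and COBL9 and CASP1 had counts in mock replicate 1 RNA and in mock replicate 2 footprints only. In pooled leaves, fewer cells that express a gene and less RNA per cell cannot be told apart.

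With elf18, WRKY30 and WRKY53 rose in RNA and in ribosome footprints, and WRKY46 rose in footprints. The WRKY30 footprint call is given as a description, since the gene entered that test only through its elf18 libraries. WRKY41 and WRKY55 were higher in both elf18 libraries than in both mock libraries in each assay, WRKY54 was lower, and WRKY70 overlapped between treatments, but none of these 4 passed edgeR's test. WRKY38 and WRKY62 had no counts. No member passed a test for a change in footprints per RNA.

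**Figure D1:**
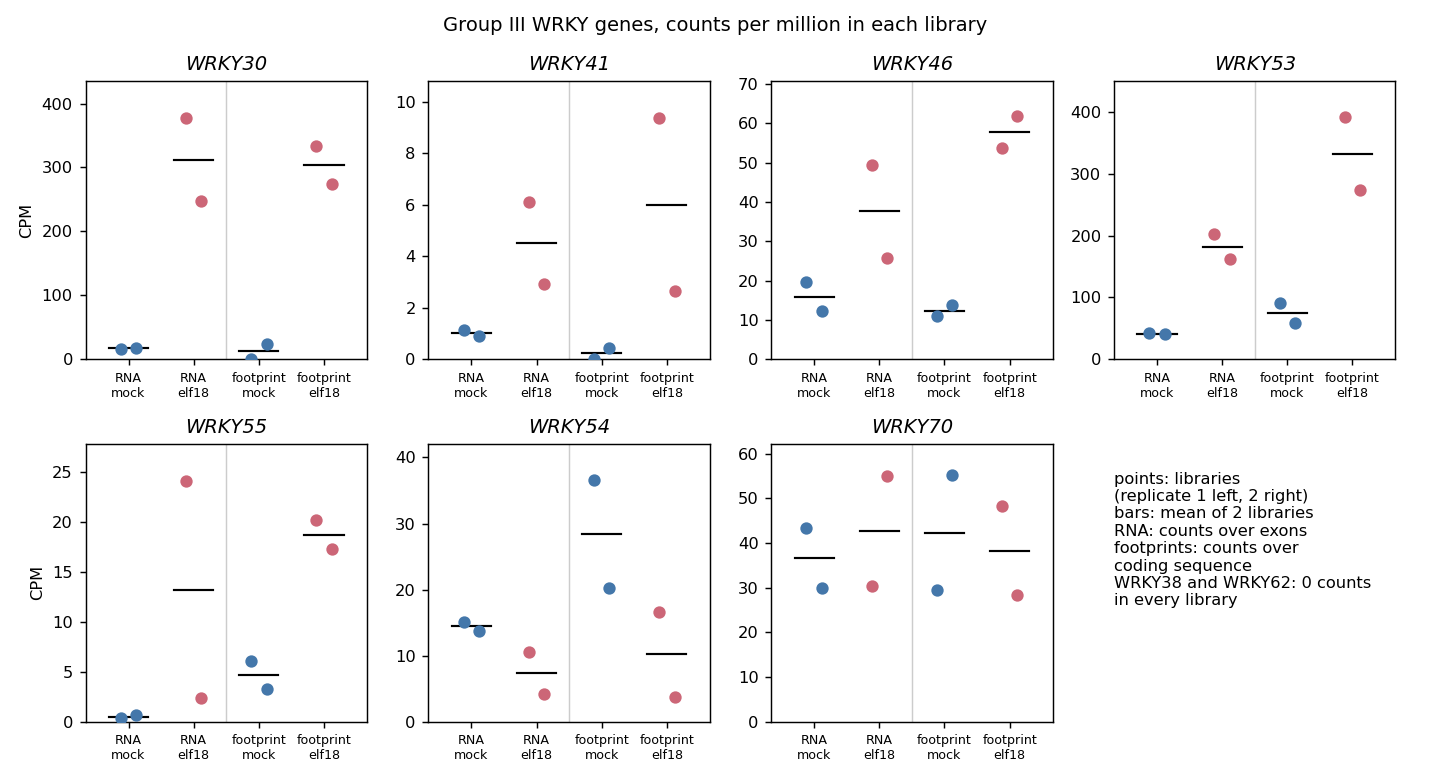
Level of each detected member in every library, in CPM on linear axes that start at 0 and differ between panels; points are libraries (blue mock, red elf18), bars are means of 2 libraries, RNA is counted over exons and footprints over coding sequence. The elf18 points lie above the mock points for WRKY30, WRKY41, WRKY46, WRKY53 and WRKY55 in both assays, below them for WRKY54, and among them for WRKY70.

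The question of which members change in transcript abundance was addressed with exon counts of the 4 RNA libraries, and edgeR's quasi-likelihood test was fitted over all genes. Of the 9 members, 7 had enough counts to be tested and 2 of these rose, WRKY30 and WRKY53, while none fell. Over all 15870 genes tested, 3.2% were called, 3.04% higher and 0.158% lower. At an unadjusted p under 0.05, 4 members were higher and 0 lower, beside 15.9% of all genes in either direction. Both elf18 libraries lay above both mock libraries for 5 members, against 14.6% of all genes tested, and below them for 1 member, against 34.1% of all genes. The median log2 change of the 7 tested members was 2.29, and that of all genes tested was -0.09. This median, the count of 5 members and the count of 4 at an unadjusted p under 0.05 include WRKY55. That gene entered the RNA test only through its elf18 libraries, so these values are not support for a rise of the set. They are given as descriptions. The elf18 RNA libraries had coding-sequence counts for 13791 and 13493 genes and the mock RNA libraries for 16540 and 16767, and the part of this gap in the members' values was not tested.

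WRKY30 encodes a factor linked to tolerance of oxidative stress, whose protein binds WRKY53, WRKY54 and WRKY70 in yeast assays. Its exon level was 16.1 and 17.6 CPM in the mock RNA libraries and 377 and 248 CPM in the elf18 libraries. The mock libraries thus lay close together and far below both elf18 libraries. The fitted rise was 20.5-fold (log2 4.36 ± 0.25, standard error here and below, adjusted p = 0.00127 by edgeR's quasi-likelihood test, Benjamini-Hochberg adjusted). By size of log2 change WRKY30 ranked 77 among the 15870 genes tested. Leaving out any one RNA library kept the call, with log2 values from 4.06 to 4.61.

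WRKY53 encodes a regulator of leaf senescence that also takes part in basal resistance to Pseudomonas syringae. Its exon level was 41.6 and 40.5 CPM in mock and 203 and 162 CPM with elf18. The mock libraries agreed within 1.03-fold, and the groups did not overlap. It rose 4.90-fold (log2 2.29 ± 0.18, adjusted p = 0.0025). On coding-sequence counts the same 2 members were called higher and none lower, beside 2.71% of 15441 genes (2.59% higher and 0.117% lower). Both elf18 libraries lay above both mock libraries for 5 members there, against 14.4% of genes, and below for 1, against 34.4%. The 5 include WRKY55, which entered this test too only through its elf18 libraries. The WRKY53 rise on these counts was 4.43-fold (adjusted p = 0.00713), and that of WRKY30 was 18.8-fold (adjusted p = 0.00317).

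WRKY46 encodes a factor that acts with WRKY53 and WRKY70 in basal resistance and takes part in responses to osmotic stress. Its exon level was 19.6 and 12.2 CPM in mock and 49.4 and 25.8 CPM with elf18. The lower elf18 library was closer to the mock libraries than to the other elf18 library. The fitted log2 change was 1.38 ± 0.48 (adjusted p = 0.223 by edgeR). DESeq2 called WRKY46 higher (adjusted p = 0.0211), as did the edgeR fit without elf18 replicate 2 (log2 1.74, adjusted p = 0.000888), in which the spread within elf18 is not measured.

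WRKY55, linked to leaf senescence through reactive oxygen and salicylic acid, was close to absent in mock RNA. Its exon counts were 5 in each mock library (0.333 and 0.633 CPM), and 268 and 36 in the elf18 libraries (24.1 and 2.34 CPM). The elf18 libraries differed from each other by 10.3-fold. A gap of this size or larger was seen in 1.43% of the 8677 genes that averaged 10 CPM or more in elf18 RNA. The fitted log2 change was 4.90 ± 1.58 (adjusted p = 0.179), and it ran from 2.45 without elf18 replicate 1 to 5.81 without elf18 replicate 2. WRKY55 entered the RNA test only through the elf18 libraries, where it is high, so its calls in the latter fit (adjusted p = 3.6e-07) and by DESeq2 (adjusted p = 0.00126) are given as descriptions.

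WRKY41, known for seed dormancy through ABI3 and for its response to bacterial flagellin, was rare. Its exon counts were 17 and 7 in mock and 68 and 45 with elf18, that is 1.13 and 0.886 CPM against 6.11 and 2.92 CPM. The groups did not overlap. The fitted log2 change of 2.29 ± 1.54 was not called (adjusted p = 0.653). The ratio of pooled counts was 4.07 with a 95% exact binomial interval of 2.60 to 6.61, which covers counting error only.

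WRKY54 and WRKY70 encode closely related factors that restrain salicylic acid synthesis and senescence together, and WRKY70 also activates salicylic acid responses and represses jasmonate responses. Neither passed the test. WRKY54 was at 15.0 and 13.8 CPM in mock and 10.6 and 4.15 CPM with elf18, a fitted log2 change of -0.83 ± 0.79 (adjusted p = 0.829). Both elf18 libraries lay below both mock libraries, as they did in 34.1% of all genes tested. Without elf18 replicate 1 the WRKY54 value was -1.62 (adjusted p = 0.0521), and without elf18 replicate 2 it was -0.32 (adjusted p = 0.679). WRKY70 was at 43.3 and 30.0 CPM in mock and 30.3 and 55.1 CPM with elf18. The mock values lay inside the elf18 range except for 1 library just under it, and the log2 change was 0.37 ± 0.41 (adjusted p = 0.866, 95% interval -0.63 to 1.38).

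WRKY38 and WRKY62 encode repressors of basal defence that are induced by salicylic acid through NPR1 and bind the histone deacetylase HDA19. Both had 0 counts in all 4 RNA libraries over exons, in all 8 libraries over coding sequence and under both treatments. A count of 0 allows a level of up to 3 counts, which is 0.195 to 0.38 CPM in the RNA exon libraries and 0.447 to 0.631 CPM in the footprint libraries. Their transcripts were therefore not detectable at this depth.

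WRKY55 and WRKY54 are neighbours on the chromosome with no other protein-coding gene between them in the RefSeq TAIR10.1 annotation, and their annotated spans do not overlap. In RNA and in footprints the elf18 libraries lay above the mock libraries for WRKY55 and below them for WRKY54. No test of the difference between these genes was run, and edgeR called neither gene in either assay with all libraries in the fit.

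Ribosome occupancy was compared in the 4 footprint libraries on coding-sequence counts. Of the 7 members tested, 3 rose, WRKY30, WRKY46 and WRKY53, and none fell. Among all 14446 genes tested, 2.76% were called; 2.59% were called higher and 0.166% lower. At an unadjusted p under 0.05, the same test had 3 members higher and 0 lower, beside 8.36% of all genes in either direction. The elf18 libraries lay above the mock libraries for 5 members, against 16.3% of all genes, and below them for 1, against 24% of all genes. The median log2 change was 2.25 over the 7 members and 0.01 over all genes tested. The median and the count of 5 members include WRKY41 and WRKY30. The 3 called members and the 3 at an unadjusted p under 0.05 include WRKY30. Both genes entered the footprint test only through their elf18 libraries. WRKY30 had 2 counts in mock replicate 1, so its mock libraries alone would not have sufficed. This median and these counts are given as descriptions. Of the 4 mesophyll markers, 3 fell in footprints, RBCS1A by 0.50, LHCB6 by 0.49 and PSBO1 by 0.36 on the log2 scale. None of the 4 was called in RNA, where these 3 had log2 values of 0.02, 0.04 and -0.01 over exons. In RNA or footprints, 0 of 4 guard cell, 0 of 3 epidermis and 0 of 3 vascular markers were called. The part of these markers in the members' values was not tested.

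WRKY53 had 90.3 and 58.4 footprint CPM in mock and 392 and 274 CPM with elf18. It rose 4.77-fold (log2 2.25 ± 0.29, adjusted p = 0.000582 by edgeR's quasi-likelihood test). The footprint rise was thus close in size to the RNA rise of 4.43-fold on the same coding-sequence counts. It was called in each of the fits that left out a library, with log2 values from 1.95 to 2.63.

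WRKY46 had 10.9 and 13.7 footprint CPM in mock and 53.8 and 61.8 CPM with elf18. Replicates lay close together in both groups, differing by 1.25-fold in mock and 1.15-fold with elf18. The rise was 5.01-fold (log2 2.32 ± 0.55, adjusted p = 0.0462). The call was lost without elf18 replicate 1 (log2 2.44, adjusted p = 0.0873) and without elf18 replicate 2 (log2 2.25, adjusted p = 0.332).

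WRKY30 had 0.421 and 24.0 footprint CPM in mock, from 2 and 161 counts, and 333 and 274 CPM with elf18. The mock footprint libraries differed by 56.9-fold, while the mock RNA libraries of the same lysates had 235 and 138 coding-sequence counts and differed by 1.12-fold. A gap of this size or larger was seen in 0.893% of the 9297 genes that averaged 10 CPM or more in mock footprints. The rise was 26.0-fold (log2 4.70 ± 0.86, adjusted p = 0.00839 by edgeR). With 2 counts in mock replicate 1, WRKY30 entered this test only through its elf18 libraries, where it is high. Its call is therefore given as a description. The size of the WRKY30 footprint change rested on which mock library was used: it was 3.78 on the log2 scale without mock replicate 1 and 9.48 without mock replicate 2. DESeq2 did not call it (log2 4.80, adjusted p = 0.0894).

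The other detected members did not pass in footprints. WRKY55 had 6.10 and 3.27 CPM in mock and 20.2 and 17.3 CPM with elf18, a log2 change of 2.08 ± 1.17 (adjusted p = 0.783). Its elf18 footprint libraries agreed within 1.17-fold, unlike the RNA libraries of the same lysates. WRKY41 had 0 and 3 footprint counts in mock and 58 and 14 with elf18, so it entered the test through the elf18 libraries. The fitted log2 change of WRKY41 was 4.68 ± 3.21 (95% interval -2.32 to 11.7, adjusted p = 0.931 by edgeR) and was not called. Its ratio of pooled counts was 24.0 with a 95% exact binomial interval of 7.89 to 119, for counting error only.

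WRKY54 had 36.6 and 20.2 footprint CPM in mock and 16.6 and 3.79 CPM with elf18. Its elf18 libraries differed by 4.38-fold, and its log2 change was -1.39 ± 0.94 (adjusted p = 0.92). WRKY70 had 29.5 and 55.2 CPM in mock and 48.2 and 28.3 CPM with elf18. Its groups overlapped, and the log2 change was -0.05 ± 0.53 (adjusted p = 1).

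**Figure D2:**
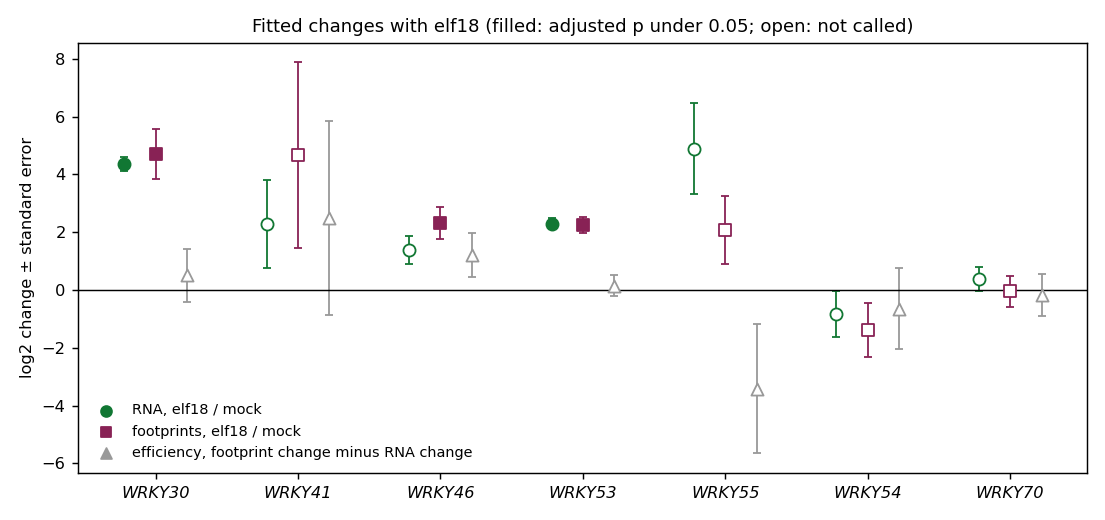
Fitted log2 change of the 7 tested members, with standard errors, in RNA over exons (circles), in footprints (squares) and in footprints per RNA (triangles); filled symbols passed an adjusted p of 0.05. WRKY30 and WRKY53 are filled in RNA and footprints, WRKY46 in footprints, and every triangle is open.

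Whether elf18 changed the footprints of a member more or less than its RNA was tested with an assay-by-treatment interaction term in a fit to the 8 libraries, on coding-sequence counts. No member passed, and none had an unadjusted p under 0.05. Over all 16177 genes tested, 0% were called by edgeR in either direction, with 4.48% at an unadjusted p under 0.05; DESeq2 called 38 genes higher and 32 lower, and limma voom 2 and 0, none of them members. The median log2 value was 0.15 over the 7 tested members and 0.16 over all genes tested.

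The interval was narrowest for WRKY53, with a log2 difference of 0.15 ± 0.37 and a 95% interval of -0.63 to 0.93. For WRKY46 it was 1.21 ± 0.76 (95% interval -0.41 to 2.82), so the RNA change that missed the threshold and the footprint change that passed it were not shown to differ. For WRKY70 it was -0.19 ± 0.73 (-1.73 to 1.35), and for WRKY54 -0.64 ± 1.40 (-3.61 to 2.32). WRKY55 had the lowest value, -3.43 ± 2.23 (-8.15 to 1.30), and WRKY41 the highest, 2.49 ± 3.35 (-4.61 to 9.59). Each of these intervals includes 0.

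WRKY30 had an efficiency change of 0.51 ± 0.91 (95% interval -1.42 to 2.44). The value turned with the mock footprint library left out: it was -0.48 without mock replicate 1 and 5.31 without mock replicate 2, the latter called (adjusted p = 0.008). With the lysate as a block the value was 1.33 (adjusted p = 0.369).

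**Figure D3:**
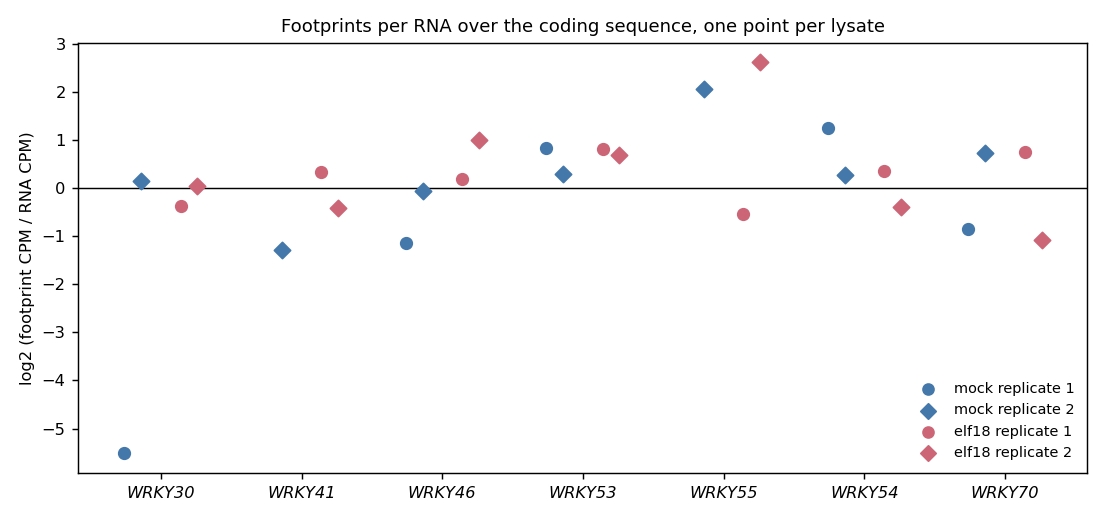
Footprint CPM divided by RNA CPM over the coding sequence, on a log2 scale, with 1 point per lysate (circles replicate 1, diamonds replicate 2; blue mock, red elf18). Points are missing where a count was 0. WRKY53 lies above 0 in all 4 lysates, and mock replicate 1 of WRKY30 lies at -5.52, far below the other lysates.

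Within a lysate, length cancels from the ratio of footprints to RNA, so the ratio can be set side by side between genes. WRKY53 had more footprints per RNA than the library average in all 4 lysates, at 1.79 and 1.23 in mock and 1.75 and 1.62 with elf18. How many of all genes did so was not counted. The WRKY53 contrast was 0.46 ± 0.26 in mock (adjusted p = 0.656) and 0.61 ± 0.26 with elf18 (adjusted p = 0.235), and it was not called. From the highest contrast down, WRKY53 ranked 4446 in mock and 5421 with elf18 among 16177 genes tested. Of all genes tested, 3.42% were called in mock (1.56% higher and 1.87% lower in footprints) and 5.63% with elf18 (2.95% higher and 2.68% lower), and no member was; at an unadjusted p under 0.05 there were 0 of 7 members in mock, beside 10.9% of all genes, and 1 of 7 with elf18, WRKY53, beside 16.7% of all genes. In these contrasts too, DESeq2 called no member.

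WRKY46 had ratios of 0.453 and 0.964 in mock and 1.14 and 1.99 with elf18. Its elf18 ratios lay above its mock ratios, but how many of all genes are separated in this way was not counted. The interaction test above did not call WRKY46. WRKY54 had 2.39 and 1.21 in mock and 1.28 and 0.761 with elf18, which overlap. WRKY70 had a low and a high lysate in each treatment, 0.552 and 1.65 in mock and 1.69 and 0.473 with elf18.

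WRKY30 had ratios of 0.0218 and 1.11 in mock and 0.773 and 1.03 with elf18. The mock replicate 1 lysate stood apart, and the other 3 lysates lay near the library average. The WRKY30 contrast in mock was -0.85 ± 0.67 (adjusted p = 0.91), but with the lysate as a block it was -1.65 and called (adjusted p = 4.36e-06). In the fit without the block, leaving out mock replicate 1 of the footprints gave 0.095 (adjusted p = 1), and the blocked fit was not run without that library. WRKY55 had a ratio of 4.20 in mock replicate 2, from 5 RNA counts, and 0.686 and 6.15 with elf18, while mock replicate 1 had 29 footprints and 0 RNA counts over its coding sequence.

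The share of a gene's exon counts that are missing from its coding-sequence count, as reads in untranslated regions are, was compared per library, with 95% Wilson intervals that cover counting error only. WRKY30 had 2.89% (1.41 to 5.85) and 0.719% (0.127 to 3.96) outside the coding sequence in mock, and 6.29% (5.60 to 7.07) and 10.6% (9.71 to 11.7) with elf18. WRKY53 had 1.60% (0.87 to 2.92) and 5% (3.10 to 7.97) in mock and 9.26% (8.13 to 10.5) and 12.8% (11.5 to 14.1) with elf18. For both genes the share was higher in both elf18 libraries than in both mock libraries.

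Among the 4 members with a mean of at least 200 exon counts, these were the 2 with such a separation upwards, and 0 were separated downwards. Over 7054 genes with that mean, 11.4% were separated upwards and 25.8% downwards. The median share over genes with at least 50 exon counts was 12.5% and 13.3% in the mock libraries and 8.41% and 4.62% with elf18. With 2 libraries a group, an exact permutation test cannot give a p under 0.333, so no test was made.

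WRKY46 had 0% and 5.21% in mock and 21.5% and 0% with elf18. The high value of WRKY46 came from 118 of 550 counts in elf18 replicate 1, while elf18 replicate 2 had 0 of 398. WRKY70 had 0 of 651 counts outside the coding sequence in mock replicate 1, against 9.70% in mock replicate 2 and 22.6% and 9.66% with elf18. WRKY54 had 17.3% and 1.83% in mock and 0% and 0% with elf18. For all 5 of these genes, WRKY30 and WRKY53 included, the intervals of libraries of the same treatment did not overlap in at least 1 treatment. Over all genes with at least 50 exon counts, 17.0% and 9.54% had a share of 0 in the mock libraries and 36.2% and 42.3% with elf18.

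**Figure D4:**
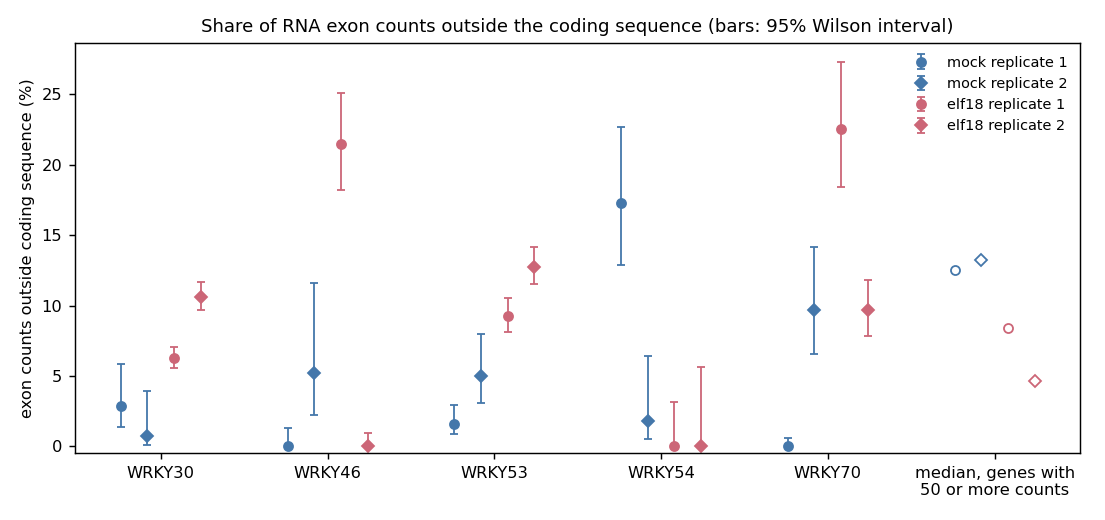
Share of RNA exon counts outside the coding sequence, in percent, for the 5 members with the most counts, with 95% Wilson intervals, and the median over genes with 50 or more exon counts (open symbols, no interval). The elf18 points of WRKY30 and WRKY53 lie above their mock points, while the median over genes is lower in both elf18 libraries.

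Genes whose level followed the called members most closely were sought by Pearson correlation of log2(CPM + 1) over the 8 coding-sequence libraries, among 9269 genes that averaged 10 CPM or more. The values are descriptions, since the 8 libraries share 4 lysates and fall into treatment groups. Nearest to WRKY30 were AT3G54150 (r = 0.998), AT1G70420 (0.993) and AT3G09020 (0.992). These values include mock replicate 1 of the footprints, with 2 WRKY30 counts, and the weight of that library was not tested. Nearest to WRKY46 were the MAP kinase gene MPK5 (0.992), the ACC synthase gene ACS7 (0.976) and the glutamate receptor-like gene GLR2.9 (0.972). Nearest to WRKY53 were the fucosyltransferase gene FUT4 (0.989), AT3G02880 (0.988) and AT1G61360 (0.985).

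Genes of the salicylic acid pathway, in which most group III factors act, were read beside the members. Of 23 listed genes of synthesis, perception and output, 22 were tested in RNA over exons, where edgeR called 4 higher and none lower. DESeq2 called 7 higher and 6 lower, and edgeR 8 and 5 without elf18 replicate 1 and 6 and 5 without elf18 replicate 2. The list median was 0.18, and -0.11 on coding-sequence counts. The call was made for CBP60G, a transcription factor of salicylic acid synthesis (log2 1.89 ± 0.16, adjusted p = 0.00311), the receptor gene NPR3 (1.02 ± 0.14, adjusted p = 0.0168), the lipase-like regulator gene EDS1 (1.51 ± 0.21, adjusted p = 0.0181) and the receptor gene NPR1 (0.99 ± 0.15, adjusted p = 0.0225). In footprints edgeR called 3 of 20 higher and none lower, with a median of 0.39, and DESeq2 6 and 0. ICS1, the isochorismate synthase gene that WRKY54 and WRKY70 restrain, was chosen after its values were seen: it was at 17.2 and 9.50 exon CPM in mock and 18.0 and 14.8 CPM with elf18, and its log2 change was 0.44 ± 0.59 (adjusted p = 0.91). On coding-sequence counts the ICS1 value had the opposite sign, -0.51 ± 0.84 (adjusted p = 0.942). PR1, an output gene of the pathway that was also chosen after its values were seen, had exon counts of 38 and 28 in the mock libraries and 0 in each elf18 library. PR1 was not called by edgeR (adjusted p = 0.145). TGA1, TGA4 and NIMIN3 of the same list also had 0 exon counts with elf18, against 49, 121 and 135 in mock in all. They were not called either (adjusted p = 0.145 each by edgeR). The part of the lower number of genes detected in the elf18 RNA libraries was not tested.

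None of 8 listed partners and upstream regulators of group III proteins was called by edgeR in RNA or footprints with all libraries. DESeq2 called 1 higher in RNA over exons and 1 lower in footprints, and edgeR called 2 lower in RNA without elf18 replicate 1. The medians were -0.14 in RNA over exons, 0.01 on coding-sequence counts and -0.30 in footprints. The list holds the deacetylase HDA19, the ubiquitin ligase UPL5 and the kinase MEKK1, which act on WRKY38 and WRKY62 or on WRKY53, and ESP, BES1, BIN2, REV and WHY1. Of 6 senescence-associated genes 2 were tested, and SAG21 rose in RNA (log2 1.62 ± 0.12, adjusted p = 0.00213) and in footprints (1.66 ± 0.21, adjusted p = 0.000549). The other tested gene, the senescence regulator NAP, had log2 values of -0.28 ± 0.61 in RNA over exons and -0.59 ± 0.93 in footprints and was not called (adjusted p = 0.958 and 1.00). SAG12, the usual marker of developmental senescence, had 0 counts in every library.

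The other WRKY genes give the family context. Of 58 further genes with a WRKY symbol, 31 were tested in RNA over exons, where 9 rose and none fell by edgeR, with a median of 1.05. DESeq2 called 14 of these genes higher and 2 lower. In footprints 5 of 27 rose and none fell, with a median of 0.95. The members' counts were 2 of 7 and 3 of 7, and no test of the difference between these sets was made. The 3 include WRKY30, whose footprint call is a description.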

How the data were processed

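The authors deposited 2 tables of unnormalised counts, over exons for the 4 RNA libraries and over coding sequence for all 8 libraries; the values are whole numbers with unequal totals. The submitters' processing notes name CASAVA 1.8.2, Bowtie2 2.0 and HTSeq, and the build TAIR10. How multiply matching reads and strand were treated is not stated, nor which footprint lengths were kept, so reads shared between related WRKY genes, or with an antisense gene, could not be told apart. No molecular identifiers are mentioned, so duplicated reads could not be told from separate molecules. The binomial and Wilson intervals take each count as separate and cover counting error only. Intervals of fitted changes use the edgeR standard errors. Footprint values were blank for 62 genes, which were left out of coding-sequence fits and totals.

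The software was R 4.3.3, edgeR 4.0.16 (TMM, filterByExpr with a minimum of 10 counts, glmQLFit, glmQLFTest), limma 3.58.1 and DESeq2 1.42.0. Fits covered all genes, with Benjamini-Hochberg adjustment over all genes tested and calls at an adjusted p under 0.05. Standard errors are the log2 change divided by the root of the F statistic. Residual degrees of freedom were 2 for RNA or footprints alone and 4 for all 8 libraries, a fit that treats the libraries of a lysate as independent. RNA and footprint libraries were matched by the lysate number in the labels, and the fit with the lysate as a block is given where it changed a call. RNA and footprint deviations from the group mean within a lysate correlated at r = -0.0127 in mock and -0.00503 with elf18 across 16177 genes. The fits were run on simulated data with independent libraries, equal variability for all genes and changes in well-counted genes only. Those runs do not cover changes in rare genes or libraries that share a lysate.

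Every member is named. Called members of the other lists are named, up to 3 for each list and comparison. NPR1 in RNA, ICS1, PR1, TGA1, TGA4, NIMIN3, NAP and SAG12 were added after values were seen. The members and lists were chosen with earlier results of these data known. Symbols came from RefSeq TAIR10.1, which matched 26685 loci and left 487 unmatched; no coordinates are printed, and sequences were not used here.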

Additional observations from a re-analysis of the deposited data

How the results depend on the processing

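WRKY30 and WRKY53 were called higher in RNA, and WRKY53 in footprints, under every alternative run: DESeq2, limma voom, other size factors, no low-count filter, a mean of at least 50 counts, a replicate block, each library left out and, on coding-sequence counts, all 8 libraries in one fit. DESeq2 called 4 members higher in RNA on exon counts and 4 on coding-sequence counts, WRKY46 and WRKY55 added. Here and in the counts below, calls of WRKY55 in RNA and of WRKY30 in footprints are descriptions. In the main fits these genes entered those tests only through their elf18 libraries. Leaving out a library gave 2 to 4 members higher in RNA in each table, 2 to 3 in footprints, 0 to 1 with higher efficiency and 0 to 1 with fewer footprints than RNA in mock; the last count was also 1 with no low-count filter and 1 with the lysate as a block, in each case WRKY30. Over all genes these fits called 462 to 1678 higher in RNA over exons, 352 to 1392 over coding sequence, 349 to 1085 in footprints and 0 to 37 in efficiency, and 168 to 754 with fewer footprints than RNA in mock. Such fits leave a group with 1 library, which is assumed to vary like the others.

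Replicate numbers are shared by mock and elf18, but nothing in the labels says that they mark a batch or day. The lysate number of replicate 1 was 2 in mock and 1 with elf18, and that of replicate 2 was 3 in both. Deviations of libraries with the same replicate number correlated at r = 0.0164 in RNA and -0.0425 in footprints. With the replicate block, 2 members were higher in RNA in each table and 3 in footprints, and all-gene calls went from 483 higher and 25 lower to 747 and 169 in RNA over exons, from 400 and 18 to 677 and 159 over coding sequence, and from 374 and 24 to 570 and 108 in footprints. DESeq2 called 1245 higher and 1383 lower in RNA over exons, 1162 and 1463 over coding sequence, and 651 and 219 in footprints, so the share of all genes called depends on the tool. For footprints against RNA, all-gene calls of 252 higher and 302 lower in mock became 766 and 670 under DESeq2 and 392 and 501 with the lysate block, and 477 and 433 with elf18 became 1277 and 1045.

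Signs of uncalled values changed as follows, on the log2 scale. Leaving out a library, WRKY70 ran from -0.16 to 0.76 in RNA over exons, -0.49 to 0.62 over coding sequence, -0.47 to 0.44 in footprints, -0.69 to 0.49 in efficiency, -0.72 to 0.21 for footprints against RNA in mock and -0.87 to 0.31 with elf18. In efficiency WRKY30 ran from -0.48 to 5.31, WRKY53 from -0.18 to 0.46 and WRKY54 from -2.11 to 0.15. For footprints against RNA, WRKY30 ran from -5.70 to 0.095 in mock and from -0.62 to 0.0039 with elf18, where WRKY41 ran from -1.25 to 0.61, WRKY54 from -1.44 to 0.84 and WRKY55 from -0.76 to 2.54. WRKY54 in that contrast, at 0.051, was also -0.023 under DESeq2, -0.025 with its size factors and -0.16 with the lysate block. The cause was not tested. The median elf18 minus mock difference in the share outside the coding sequence over 7 members was 6.27 percentage points, and 0 to 5.47 with a library left out, the lowest without elf18 replicate 1. WRKY41 and WRKY55 had 24 and 10 exon counts in mock RNA in all, and WRKY38 and WRKY62 none, so low levels of these genes are poorly measured at this depth.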
